A study of Mus musculus with 8 samples.

Results

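Transcription regulators of the heart were followed across single endocardium cells of the mouse embryo: the zinc finger factors *Gata4*, *Gata5* and *Gata6*, the FOG cofactors *Zfpm1* and *Zfpm2*, and the partner factors *Hand2*, *Mef2c*, *Isl1*, *Tbx20* and *Nkx2-5*. They are the 10 of 35526 gene names on the array that were chosen as cardiac GATA factors, FOG proteins and partners, and every non-control probe carrying such a name was taken, which gave 15 probes. The list was made with results of these data known: the *Gata4* probe and a *Zfpm1* probe were already among the probes that the study selected on these same 8 cells as higher in *Sox17* KO, so that their differences between genotypes are described and carry no test. Each array was hybridized with RNA amplified from 1 cell, and 4 cells were WT (*Mesp1*+/+, *Sox17* flox/flox, no Cre) and 4 were *Sox17* KO (Mesp1Cre/+, *Sox17* flox/flox). Both genotypes carried the floxed *Sox17* alleles, came from hearts at E8.5 with 9 somites, and had been named endocardium after PCR of marker genes on the cDNA of each cell. Cre was expressed from the *Mesp1* locus, which is active in the early mesoderm that forms the whole heart and not in endocardium alone, so that loss of *Sox17*, presence of Cre and the altered *Mesp1* allele cannot be told apart. No source names the embryo that a cell came from, each genotype was therefore treated as 1 sample, and no p-value was computed.

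GATA factors bind the DNA letters GATA through zinc fingers and work together with other cardiac factors on shared promoters and enhancers. FOG proteins are not known to bind DNA themselves but dock on the N-terminal finger of a GATA factor and bring the NuRD deacetylase complex or CtBP corepressors to it. In the early heart *Gata4* and *Gata6* act in myocardium and endocardium, *Gata5* is known for endocardial expression, and *Nkx2-5*, *Isl1*, *Tbx20*, *Mef2c* and *Hand2* mark or pattern cardiac progenitors.

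Intensities are given after scaling of each array, in arbitrary units, and log2 values were taken after all values under 50 had been set to 50, which is 5.64 on the log2 scale and is called the floor. A probe is called well above background where the scanner software set that flag. Differences are mean log2 values of KO minus WT cells, with the pooled SD of cells within a genotype. Between 11370 and 18175 probes were well above background in a WT cell and between 12781 and 16853 in a KO cell. The 2 *Sox17* probes were well above background in no cell of either genotype, with a highest scaled intensity of 6.18, so that they give no check of the knockout. The arrays shared 1 slide, WT in a column and KO in the other, and the place on the slide cannot be told apart from genotype.

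Of the 15 probes, 14 had usable spots in every cell and 11 of these, from 8 genes, were well above background in at least 1 cell. The other 3 probes, of *Mef2c*, *Isl1* and *Tbx20*, were well above background in no cell. Of the 11 detected probes, 2 were at least 5-fold higher in KO cells, those of *Gata4* and the downstream probe of *Zfpm1*, and 0 were at least 5-fold lower. Over all 26833 detected probes the shares were 2.83% higher and 2.85% lower. The same 2 probes were those whose KO cells all lay above all WT cells, and for 0 probes did all KO cells lie below, against 1.10% and 0.242% of all detected probes. Since the list was made with these differences known, nothing is read from the counts. The median difference was 0.55 over the 11 detected probes and 0 over all detected probes.

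**Figure D1:**
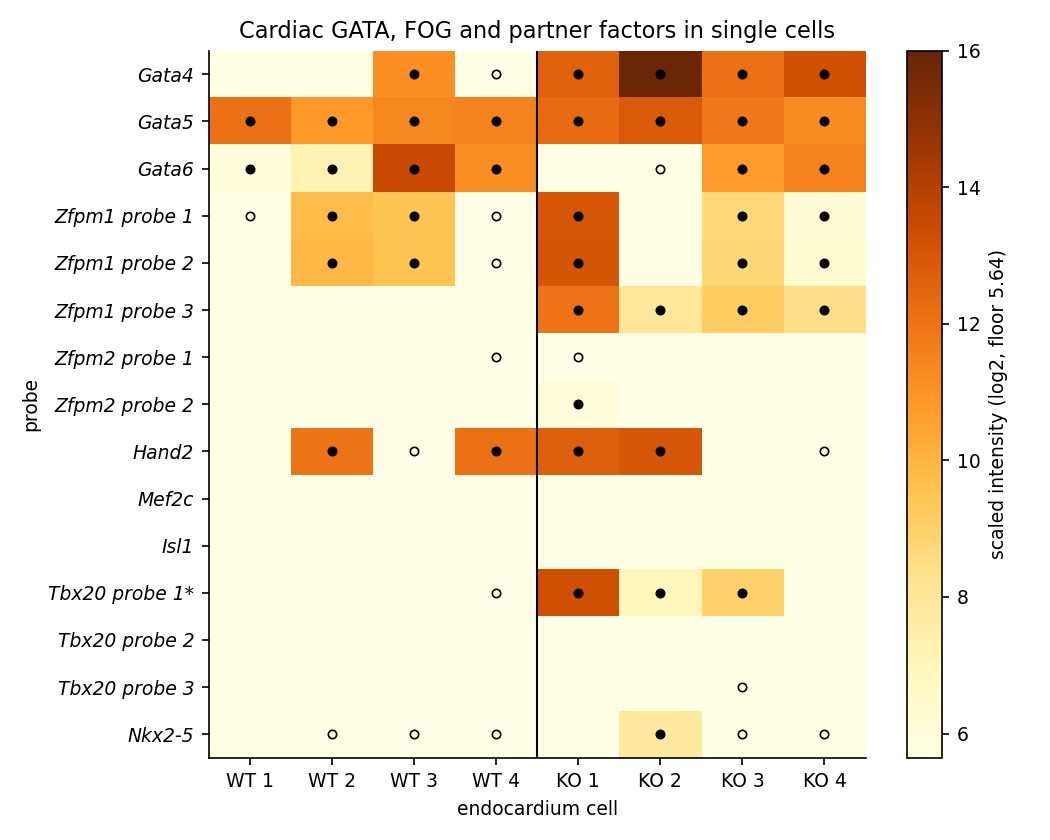
Scaled intensity (log2, colour) of the 15 probes (rows) in each WT and KO endocardium cell (columns), with filled dots for spots well above background and over the floor of 5.64, and open dots for spots well above background at the floor. *Gata5* was above the floor in all 8 cells, *Gata4* in 1 WT and 4 KO cells and the downstream *Zfpm1* probe (probe 3) in 4 KO cells only, and the asterisk marks a *Tbx20* probe with an outlier spot in KO cell 3.

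*Gata4*, which is required for the ventral fusion and growth of the heart tube, was measured by 1 probe (A_55_P2028894, mm9 chromosome 14, 63817858 to 63817917, minus strand, at base 3227 of NM_008092). Its scaled intensity was 12.7, 6.59, 2161 and 17.1 in the 4 WT cells, listed in the order of their numbers here and below, and 6310, 59775, 4202 and 9763 in the 4 KO cells. A single WT cell, WT cell 3, held *Gata4* above the floor, and all 4 KO cells lay above it. The probe was well above background in 2 WT cells (3 and 4) and 4 KO cells. On the log2 scale the WT mean was 7.0 ± 2.72 (SD, n = 4 cells) and the KO mean 13.45 ± 1.69 (SD, n = 4 cells), a difference of 6.44 (SD 2.26). Leaving out KO cell 2 gave 5.64 and leaving out WT cell 3 gave 7.80, and the difference was 4.94 with a floor of 200 and 7.90 with a floor of 10. WT cell 3, at 11.08, lay close below the lowest KO cell, at 12.04, and the other 3 WT cells set most of the gap.

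*Gata6*, a paralog that acts with *Gata4* in early heart and endoderm, was measured by 1 probe (A_51_P411917, mm9 chromosome 18, 11085039 to 11085097) and did not follow *Gata4*. Its scaled intensity was 61.5, 152, 11796 and 2320 in the 4 WT cells, and 10.2, 26.9, 1746 and 2921 in the 4 KO cells. All 4 WT cells were above the floor, although WT cells 1 and 2 were close to it, and KO cells 1 and 2 were under it. The genotypes overlapped. The log2 difference was -1.08 (SD 3.35), smaller than the spread between cells, and its sign rested on single cells: it was -2.26 without WT cell 1 and 0.27 without WT cell 3. KO cell 2, the brightest cell for *Gata4*, had *Gata6* under the floor, and WT cell 3, the brightest for *Gata6*, was the WT cell with *Gata4*. The *Gata6* probe shares a run of 16 bases with a probe of *Ets2* that was well above background in all 8 cells.

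*Hand2*, a basic helix-loop-helix factor of the right ventricle and endocardium, was close to all or none. Its probe (A_55_P2016237, mm9 chromosome 8, 59803220 to 59803279) gave scaled intensities of 16.5, 4029, 31.6 and 4333 in the 4 WT cells, and 6394, 8046, 2.45 and 22.3 in the 4 KO cells. In each genotype 2 cells lay between 4029 and 8046 and the other 2 lay under the floor. The probe was well above background in 3 WT and 3 KO cells, with WT cell 3 and KO cell 4 among them. The genotypes overlapped, with a log2 difference of 0.39 (SD 3.92) that was -0.40 when the floor was set before scaling and -0.19 after normexp background correction. Without KO cell 2 it was -0.86 and without KO cell 3 it was 1.58.

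**Figure D2:**
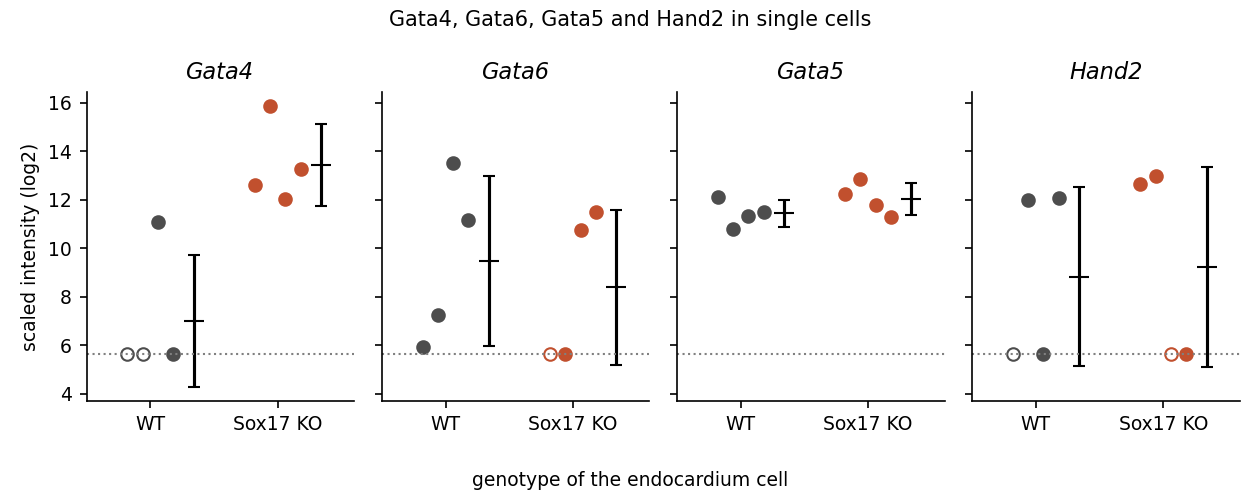
Scaled intensity (log2) of *Gata4*, *Gata6*, *Gata5* and *Hand2*, with 1 point per cell (filled where the spot was well above background), WT in grey and *Sox17* KO in orange, the mean and SD over 4 cells as bars, and the floor of 5.64 as a dotted line. *Gata4* points of KO cells lie between 12.04 and 15.87, all above the WT points, while *Gata6* and *Hand2* fall into high and low cells in both genotypes and *Gata5* varies least.

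*Zfpm1*, which encodes FOG1, a GATA cofactor best known from blood and also expressed in heart, was measured by 3 probes whose patterns over the cells differed. A pair of probes overlaps over 55 bases (A_55_P2048518 at mm9 chromosome 8, 124861087 to 124861146, and A_55_P1994887 at 124861092 to 124861151, both on NM_009569). The downstream probe (A_55_P1987984, 124861353 to 124861412) is assigned to the predicted transcript XM_006530851 and starts 201 bases after the end of the pair. A hexamer AATAAA, the usual polyadenylation signal, lies inside the pair, and the downstream probe starts 225 bases after the start of it. The stretches are shown because the pair and the downstream probe differed in which cells they were high, and the hexamer is in capitals.
Zfpm1 pair: cccttgacacttAATAAAgacattcggtgt
Zfpm1 downstream: tagagagagtgaaaccttgttcttgctgag

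The downstream probe was well above background in 0 WT and 4 KO cells. Its scaled intensity was 3.93, 1.28, 3.73 and 3.56 in the 4 WT cells, and 4086, 241, 561 and 344 in the 4 KO cells. No WT cell rose over the floor and every KO cell did. With WT cells counted at the floor, KO cells were at least 13.2-fold higher (mean log2 of 9.37 ± 1.82, SD, n = 4 cells, against 5.64). This bound is a log2 difference of 3.72, which was 2.85 without KO cell 1, 6.04 with a floor of 10 and 1.72 with a floor of 200, where it no longer reached 5-fold. The probe shares 16 bases with a *Smad4* probe.

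The upstream pair did not follow it. The brighter probe of the pair was at 18.2, 927, 718 and 18.8 in the 4 WT cells, and 8559, 10.1, 428 and 76.3 in the 4 KO cells. WT cells 2 and 3 thus held *Zfpm1* by the pair, above KO cells 3 and 4, and the genotypes overlapped. The log2 difference was 0.77, and 0.74 for the other probe of the pair. The mean of the pair differed by 0.75 (SD 2.88), and the values of both probes lay within 0.10 log2 units of each other in every cell. The difference was -0.78 without KO cell 1 and 1.69 without KO cell 2 for the brighter probe. WT cells 2 and 3 were above the floor by the pair and not by the downstream probe, and KO cell 2 was above it by the downstream probe and not by the pair. The mean of the 3 probes differed by 1.74.

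**Figure D3:**
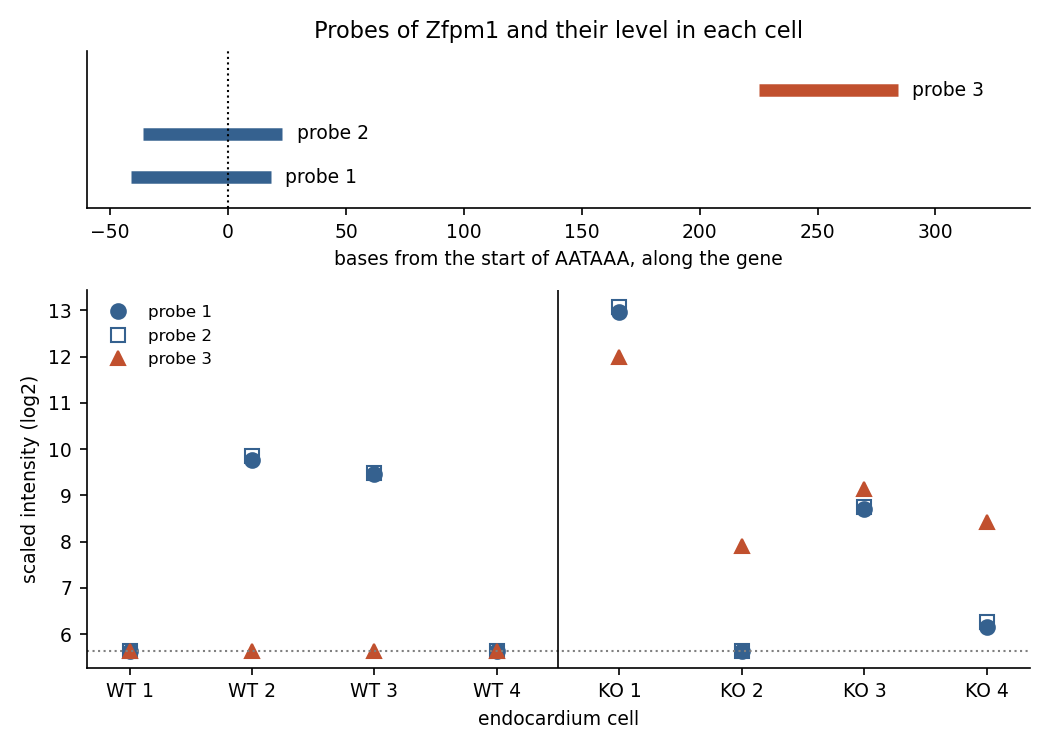
Top, position of the 3 *Zfpm1* probes in bases from the start of the AATAAA hexamer (dotted line), and bottom, their scaled intensity (log2) in each cell, with the floor of 5.64 as a dotted line. Probes 1 and 2 lie on top of each other in WT and KO cells, whereas probe 3, which starts 225 bases after the hexamer, leaves the floor in the 4 KO cells only.

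*Zfpm2*, which encodes FOG2, the partner of *Gata4* in the myocardium and in coronary vessel formation, was at the floor in nearly every cell. Of its 2 probes on chromosome 15, A_51_P336509 was above the floor only in KO cell 1, with a scaled intensity of 64.3 or 6.01 on the log2 scale. A_55_P2031357 was well above background in WT cell 4 and KO cell 1, at 15.5 and 38.1, and stayed under the floor. KO cell 1 was therefore the one cell with both FOG genes over the floor.

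*Gata5*, a factor of endocardium and endoderm, was the one member above the floor in all 8 cells. Its probe (A_55_P2046867, mm9 chromosome 2, 180059867 to 180059926, minus strand, at base 3168 of NM_008093) gave 4432, 1776, 2584 and 2926 in the 4 WT cells, and 4887, 7387, 3528 and 2474 in the 4 KO cells. The brightest cell was 4.16-fold above the dimmest, the genotypes overlapped, and the log2 difference of 0.60 (SD 0.61) was within the spread between cells. The sequence of the probe limits what this value says about *Gata5*. A run of 16 bases or more of it occurs in 11 probes of other genes, and 99.0% of usable probes share such a run with as many or fewer. Of these 11 probes, 10 (90.9%) were well above background in all 8 cells, against 13.7% of all usable probes. They carry the names *4930519A11Rik*, *AK140579*, *D130012P04Rik*, *Dnajc5*, *Elk1*, *Fkbp5*, *Glrx2*, *Kctd14*, *Med16*, *Siglech* and *Timmdc1*. A run of the probe was also found in 47 of 32851 RefSeq promoter windows. The stretch has letters of the B1 type, a short repeat spread over the mouse genome. In the 30 bases below, from base 19 to base 48 of the probe, the capitals mark 16 bases found in 7 of the other probes and 35 promoter windows.
Gata5 probe: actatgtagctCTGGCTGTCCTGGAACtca

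Whether RNA other than *Gata5* took part in this signal was not tested. The SD of 0.61 between cells was below the median of 0.72 over the 7570 probes with signal in all 8 cells, and 39.8% of those probes had an SD as low or lower.

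Among the partner factors, the homeodomain factor *Nkx2-5*, an early marker of cardiac progenitors, was detected at low intensity. Its probe (A_51_P173285, mm9 chromosome 17, 26975621 to 26975680) was at 9.66, 9.53, 15.5 and 6.23 in the 4 WT cells, and 13.9, 232, 17.3 and 12.6 in the 4 KO cells. It was well above background in 3 WT and 3 KO cells, and KO cell 2 alone rose over the floor, at 7.86 on the log2 scale. The difference of 0.55 was 0 without that cell. *Isl1*, a LIM homeodomain factor of the second heart field, had 10 spots per array and was well above background in no cell, with a highest scaled intensity of 9.92. *Mef2c*, a MADS box factor that acts with GATA factors in muscle and endothelium, was likewise well above background in no cell, with a highest value of 3.94. Its probe lies at base 1104 of the listed transcript.

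*Tbx20*, a T-box factor of myocardium and endocardium, had 3 probes that did not behave alike. On chromosome 9, A_55_P1976310 was well above background in no cell and A_52_P429876 only in KO cell 3, at 37.3, under the floor. The third probe (A_55_P2162503, mm9 chromosome 9, 24563177 to 24563236, minus strand, at base 1201 of NM_001205085) was not among the 14 usable ones, because its spot in KO cell 3 had been marked as non-uniform. It lies in the coding part that encodes the T-box, the DNA-binding domain, and is shown because it was the one *Tbx20* probe with a high signal.
Tbx20 probe: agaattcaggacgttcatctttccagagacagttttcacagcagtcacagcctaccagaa

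Its scaled intensity was 5.12, 1.58, 3.37 and 11.0 in the 4 WT cells, and 9889, 128, 506 and 1.95 in the 4 KO cells, where 506 is the marked spot. All 4 WT cells were under the floor, although WT cell 4 was well above background, and KO cell 4 was under it too, so that the genotypes met at the floor. Over usable spots (4 WT and 3 KO cells) the log2 difference was 2.99 (SD 2.57), and with the marked spot kept it was 3.08 (SD 2.35). This probe was singled out after its values were seen, and KO cell 1, its highest cell at 13.27, was also the highest cell for *Zfpm1*.

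**Figure D4:**
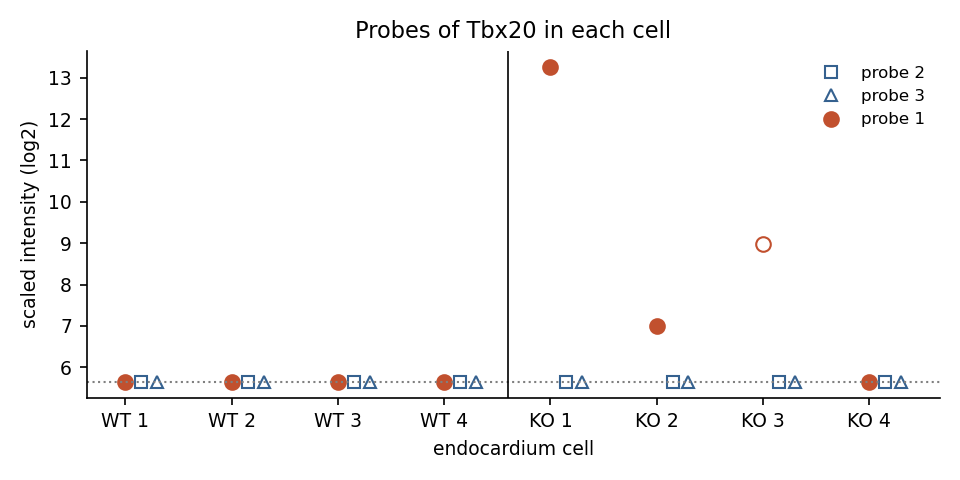
Scaled intensity (log2) of the 3 *Tbx20* probes in each WT and KO cell, with the floor of 5.64 as a dotted line and the marked spot of KO cell 3 as an open circle. Probe 1, in the T-box coding part, reached 13.27, 7.0 and 8.98 in KO cells 1 to 3, while probes 2 and 3 stayed at the floor in all 8 cells.

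The set of factors over the floor varied from cell to cell. Sets and numbers given here come from the 14 usable probes and leave out the third *Tbx20* probe. That probe was over the floor in KO cells 1 and 2, and in KO cell 3 by its marked spot. It was also well above background in WT cell 4, under the floor. In WT cells 1 to 4, 3, 5, 6 and 7 of the 10 genes were well above background, and in KO cells 1 to 4 the numbers were 5, 6, 6 and 6. Over the floor the numbers were 2, 4, 4 and 3 in WT and 5, 5, 4 and 4 in KO cells. WT cell 1, the cell with the fewest factors, was also the array with the fewest probes well above background. Its factors over the floor were *Gata5* and *Gata6*. WT cell 2 added *Zfpm1* and *Hand2*, WT cell 4 added *Hand2* only, and WT cell 3 had *Gata4*, *Gata5*, *Gata6* and *Zfpm1*. By the usable probes, KO cells 3 and 4 had exactly the set of WT cell 3. KO cells 1 and 2 shared *Gata4*, *Gata5*, *Zfpm1* and *Hand2* without *Gata6*, to which KO cell 1 added *Zfpm2* and KO cell 2 added *Nkx2-5*. *Hand2* and *Gata4* were over the floor together in 2 KO cells and in no WT cell, whereas *Hand2* and *Gata6* were together in 2 WT cells and in no KO cell. By the flag for well above background these splits were not seen. *Hand2* and *Gata4* were then together also in WT cells 3 and 4, and *Hand2* and *Gata6* also in KO cells 2 and 4.

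**Figure D5:**
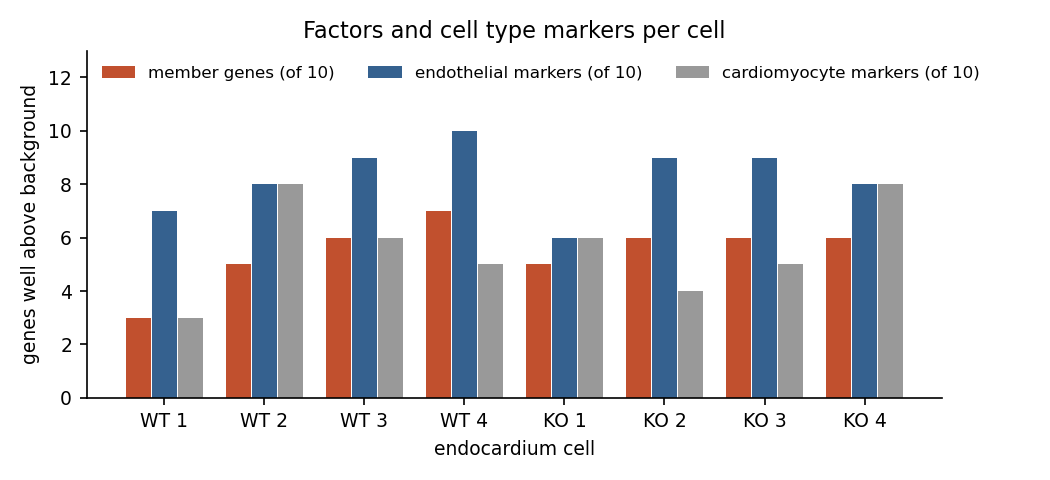
Number of the 10 factors, of 10 endocardial or endothelial markers and of 10 cardiomyocyte markers well above background in each WT and KO cell. Between 3 and 7 factors were detected per cell by the usable probes. Endothelial markers equalled or outnumbered cardiomyocyte markers in every cell, with 8 of each in WT cell 2 and KO cell 4 and 6 of each in KO cell 1. By summed scaled intensity, however, cardiomyocyte markers were higher than endothelial markers in WT cell 2 and in KO cells 1 and 4.

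Endocardial or endothelial markers were well above background in 7, 8, 9 and 10 of 10 in WT cells 1 to 4 and in 6, 9, 9 and 8 in KO cells 1 to 4. Their summed scaled intensity ran from 10037 to 35685 in WT and from 7045 to 79403 in KO cells. *Cdh5*, the cadherin of endothelial junctions, was above the floor in all 8 cells. *Emcn*, an endothelial sialomucin, was at the floor in WT cells 1 to 3 and at 6.84 in WT cell 4, and at 8.52, 13.36 and 12.54 in KO cells 1 to 3 and at the floor in KO cell 4, with a difference of 4.07 (SD 2.58). It was the 1 marker of the 10 at least 5-fold higher in KO cells and was named after its values were seen. Differences of the other markers had both signs. They were -2.16 (SD 1.88) for *Tek*, -1.58 (SD 2.23) for the brighter *Nfatc1* probe and -0.96 (SD 1.48) for *Cdh5*. *Pecam1* differed by -0.48 (SD 2.43) and *Npr3* by -0.27 (SD 0.26). Higher in KO were *Tie1* with 1.34 (SD 1.92), *Sox7* with 0.84 (SD 2.96), *Sox18* with 0.53 (SD 1.48) and *Kdr* with 0.16 (SD 2.47). The other *Nfatc1* probe gave 1.72. Of the 10, 0 were at least 5-fold lower, and the median over the 10 was -0.06. Over all detected probes 2.83% were at least 5-fold higher and 2.85% at least 5-fold lower. Here and in the lists below, genes were counted by their brightest probe, whereas these shares count every detected probe. Cardiomyocyte markers were also found, in 3, 8, 6 and 5 of 10 in WT cells and in 6, 4, 5 and 8 in KO cells, with summed intensities of 329 to 38429 and 852 to 48860. Of these 10 markers, 2 were at the floor in every cell, *Myh6* and *Nppa*, although *Nppa* was well above background in 3 WT and 3 KO cells. The other 8 rose over the floor in at least 1 cell, among them the myosins *Myh7* and *Myl4*, at 13.24 and 14.03 in WT cell 2, and *Myl7* and the troponin *Tnnt2*, at 12.64 and 13.26 in KO cell 4. KO cell 1, with the highest *Zfpm1* and the highest *Tbx20* signal, had the highest cardiomyocyte sum, and KO cell 2, with the highest *Gata4*, had the lowest of the KO cells, at 852. In KO cell 1 the sum came mainly from *Actc1*, at 15.32 on the log2 scale, while *Tnnt2* and *Tnni1* were at the floor. The cardiomyocyte sum exceeded the endothelial sum in WT cell 2 (38429 against 10037), KO cell 1 (48860 against 7045) and KO cell 4 (31604 against 13906). In the other cells it was below the endothelial sum. The part of cardiomyocyte RNA in the values of the 10 factors was not tested. Of 3 smooth muscle markers, 2 carried the flag in every cell, *Acta2* and *Tagln*. Both stood at the floor in WT cells 3 and 4 and KO cells 2 and 3, and *Acta2* also in KO cell 1. *Acta2* was high in WT cell 2, at 13.80, and KO cell 4, at 12.86, and at 6.15 in WT cell 1. *Tagln* reached at most 8.22, in KO cell 4. Blood markers were found in 0 to 2 of 5 and always at the floor, and endoderm markers in 0 of 5.

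The GATA factors known from blood and other tissues were partly present. *Gata1*, the erythroid partner of FOG1, was well above background in no cell. *Gata2*, a factor of endothelium and blood progenitors, was well above background in 4 WT and 3 KO cells, with log2 values of 6.56, 11.91, 12.52 and 11.97 in the 4 WT cells, and 5.64, 14.23, 11.41 and 5.71 in the 4 KO cells. The genotypes overlapped and the difference was -1.49 (SD 3.62). *Gata3*, which fell outside the naming rule, was well above background in 3 WT and 0 KO cells. WT cell 1 stood at 14.10, WT cell 4 at 10.50 and the other 6 cells at the floor, with a difference of -3.33 (SD 2.91).

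Of 19 cofactors through which FOG and GATA proteins act, 17 were detected, 0 were at least 5-fold higher and 2 at least 5-fold lower in KO cells, with a median difference of -0.15. Over all detected probes 2.83% were higher, 2.85% were lower and the median was 0. The 2 lower genes were *Mta2*, with -2.86 (SD 2.66), and the histone chaperone *Rbbp4*, with -2.59 (SD 2.64). *Mta2* ran over 11.53 to 14.97 in WT and was at 5.64 in KO cell 2, at 8.86 in KO cell 4 and at up to 13.29 in the other KO cells, so that the genotypes overlapped. *Rbbp4* was at 5.64 in WT cell 1, at 11.04 to 14.09 in the others of WT and at 7.31 to 9.28 in KO, and its dimmer probe gave a difference of 0. The helicase *Chd4* was at 13.90, 11.19, 13.97 and 13.57 in WT and at 14.16 to 15.30 in KO, all KO cells above all WT cells (as for 1.10% of all detected probes), with a difference of 1.47 (SD 1.0). *Rbbp7* differed by 0.75 (SD 1.67), and by 0.83 by its dimmer probe.

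Of 22 other cardiac transcription factors, 9 were detected, 0 were at least 5-fold higher and 1 at least 5-fold lower, against the same 2.83% and 2.85%, and the median difference was 0. That gene was *Tead1*, the effector of the Hippo pathway, with log2 values of 14.97, 9.94, 5.64 and 11.45 in WT cells 1 to 4 and 12.93 in KO cell 4, the other KO cells being at the floor. Its difference was -3.04 (SD 3.76), and its dimmer probes gave 0.10 and 0. *Srf*, the serum response factor, differed by 1.83 (SD 2.82), which came mainly from KO cell 4 at 13.66, and by 0.77 by its dimmer probe. *Mef2b* differed by 0.24 (SD 0.49), and by 0 by its dimmer probe, and *Foxh1* by 0.31 (SD 0.47), both near the floor. *Tbx5*, *Hand1*, *Myocd* and *Mesp1* were well above background in no cell.

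Of 22 textbook target genes of cardiac GATA factors and their partners, 16 were detected, 1 was at least 5-fold higher and 0 at least 5-fold lower, again beside 2.83% and 2.85% of all detected probes, and the median difference was 0. The higher gene was cardiac actin, *Actc1*, at 6.38, 12.80, 8.81 and 12.06 in the 4 WT cells, and at 15.32, 9.17, 12.70 and 13.55 in the 4 KO cells. The genotypes overlapped and the difference of 2.67 was within the SD of 2.79 between cells. Its lowest KO cell was KO cell 2, the cell with the highest *Gata4*. *Tnni1*, the slow troponin I of embryonic heart, was well above background in 1 WT and 4 KO cells and differed by 1.38 (SD 3.34). *Gja1*, a gap junction protein, was well above background in 4 WT and 0 KO cells and differed by -1.06 (SD 1.01), with WT cells 2 and 4 at the floor. Genes were named only if well above background in all 4 cells of a genotype. *Tnni1* and *Gja1* met this in 1 genotype each, so that nothing is read from their split in detection. *Nfatc1*, the endocardial factor that a *Gata5* partnership is known for, differed by -1.58 (SD 2.23) by its brighter probe and by 1.72 by the other, so that no direction can be given for it.

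By mean absolute difference of centred log2 values over the 8 cells, the genes most like *Gata4* among 4856 candidates were *Galk1* (0.98), *Coro7* (1.30) and *Nhp2l1* (1.37), against a median of 3.43 over the candidates. *Galk1* stood at 13.57 in WT cell 3 and at 7.41, 10.51 and 8.21 in the other WT cells, below its KO range of 13.77 to 15.26. Among those most like the brightest *Zfpm1* probe were *Naa20* (0.74) and *Dhrsx* (0.80), against a median of 2.43, and both were at the floor in WT cell 1 and KO cell 2 as *Zfpm1* was. For the downstream *Zfpm1* probe, added after its values were seen, they were *Tmtc3* (0.83), *Vangl2* (0.85) and *Lyl1* (0.87), against 2.01. Likeness over 8 cells is a description with a search over many genes behind it.

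Promoter windows from 250 bases before to 50 bases after a RefSeq start site (assembly GRCm38.p6) were given for 7 of the 10 genes, 9 windows in all, and not for *Gata4*, *Gata6* and *Zfpm2*. GATA letters (AGATAA with its variant AGATAG, and TGATAA with its variant TGATAG, on either strand) were found in 2 of 9 windows, those of *Hand2* and *Isl1*, against 29.8% of 32851 windows. SOX letters (ACAATG with its variants ACAAAG as well as ACAATA, on either strand) were also found in 2 of 9, the windows of *Mef2c*, against 34.1%. Both shares are near the background. The *Hand2* window is shown in part because it held 2 GATA matches close together, at -215 and -172 from the start site, in capitals, on the plus strand of chr8:57320756-57320828.
Hand2 promoter: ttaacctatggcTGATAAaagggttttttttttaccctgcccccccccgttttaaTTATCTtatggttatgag

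The letters are a match only, and no binding was measured. *Hand2* was over the floor in cells with *Gata6* but not *Gata4* (WT cells 2 and 4) and in cells with *Gata4* but not *Gata6* (KO cells 1 and 2), and it was under the floor in the 3 cells that held both (WT cell 3 and KO cells 3 and 4). WT cell 1 held *Gata6* without *Gata4* and had *Hand2* under the floor. This pattern rests on the floor, since by the flag *Hand2* was well above background in WT cell 3 and KO cell 4, at 31.6 and 22.3. By the flag *Gata4* was also well above background in WT cell 4, at 17.1, and *Gata6* in KO cell 2, at 26.9. Those cells then held both GATA factors with *Hand2*. The pattern was noticed after the values were seen.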

How the data were processed

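RNA amplified from single endocardium cells was measured on 8 1-colour Agilent arrays, 4 WT and 4 *Sox17* KO. The authors deposited the output of Agilent Feature Extraction 12.0.2.2 (design 028005, probes annotated on mm9). The deposited intensity values were already background-subtracted and detrended within each array and had no normalization across arrays. The flags are those of the same software.

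Without control and outlier spots, and after averaging replicate spots, 55295 of 55681 probes had a value on every array. Scaling brought the 50th percentile of 7570 probes, those with signal well above background everywhere, to a common value. A floor of 50 was then applied before log2. A probe was well above background where over 50% of its usable spots were, and no probe was saturated. The depth of a cell, counted in detected probes, was 11370 to 18175, and the number of arrays limits the precision. A genotype counted as 1 sample, so values are set against the SD between cells. A gene is given by its brightest probe, and members and genes named from the pathway lists have their other probes beside it.

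All 10 members are named, with at most 4 genes per pathway list (well above background in all 4 cells of a genotype, largest difference) and the 3 genes most like *Gata4* and *Zfpm1*, of which 1 is not reported here. The members and lists were chosen with earlier results of these data known. *Emcn*, *Gata3*, the third *Tbx20* probe and genes named as markers or as undetected fall outside this rule and were named after their values were seen. Settings tried besides were a 75th percentile, a floor ahead of scaling, quantile normalization, normexp, floors of 10 and 200, other filters and detection calls, the mean of all probes, and each cell left out. The outlier spot of *Tbx20* kept was added after seeing the data. Probes were compared with each other and with promoters in runs of 16 bases. The steps were tested on simulated data. There, probes of middle intensity were shifted alike in every KO cell, so that single cells dropping to the floor were not tried. Python 3.11.15, numpy 2.4.6, pandas 2.3.3, matplotlib 3.10.9, R 4.3.3 and limma 3.58.1 were used.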

Additional observations from a re-analysis of the deposited data

Results flagged for a closer look

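Of 15 probe and genotype groups of 4 cells that could be checked, 3 had 1 cell set apart from the other 3 by the ratio of gap to range. They were *Gata4* in WT (WT cell 3, at 11.08), *Zfpm2* in KO (KO cell 1, at 6.01) and *Nkx2-5* in KO (KO cell 2, at 7.86). The *Zfpm2* cell lay close to the floor of 5.64. In each, the gap to the nearest cell was the whole range of the group (ratio of 1), since the other 3 cells were at the floor. Chance gives about 1 in 20 such groups, or 0.75 of 15. Groups with 3 cells at the floor always pass, so that this rate does not apply to them.

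The *Tbx20* probe in the T-box coding part, which was left out of the 14 usable probes and of the counts because of its marked spot, gave log2 values of 13.27 in KO cell 1, 7 in KO cell 2 and 8.98 in KO cell 3. KO cell 4 stood at the floor, as all 4 WT cells did.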

How the results depend on the processing

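No paired analysis was possible because no test was made and the cell numbers do not mark a shared embryo. The number of probes at least 5-fold higher in KO cells was 2, and 1 with a floor of 200, where *Gata4* was left, and 0 when a probe had to be well above background in every cell, which left *Gata5* alone. In the other settings run it was the same 2 probes, without each cell in turn included, and 0 probes were lower. By the flag for positive and significant signal, WT cell 1 had 7 and KO cell 1 had 8 of the 10 genes, and by the floor after scaling WT cell 4 had 3. Of 179 values of 13 differences under alternatives, 169 were unchanged or moved by less than the SD between cells, 10 moved by more and 0 reversed a called value. *Mef2c*, *Isl1* and the brightest *Tbx20* probe were at the floor in all 8 cells, and an alternative that also gave 0 counted as unchanged. For genes with 1 probe, among them *Gata4*, *Gata5*, *Gata6*, *Hand2* and *Nkx2-5*, the mean of all probes is the main value and counted as unchanged too. A reversal could be counted only where the main difference was at least 5-fold. Changes of sign for *Gata6*, *Hand2* and the *Zfpm1* pair are therefore not counted as reversed. With a floor of 10 or normexp, the median over all detected probes moved to 0.15 and 0.23. Values under 50 have no order, and a factor at the floor may be present at a level these arrays did not measure. Differences of *Gata6*, *Hand2*, *Nkx2-5* and the *Zfpm1* pair rest on single cells.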
